A study of Mus musculus with 18 samples.

Results

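RNA-seq of side-population haematopoietic stem cells (SP-HSC) from Old mice was compared with that from Young mice, with 3 pools of mice per age and therefore 6 of the 9 RNA-seq pools, out of 18 samples in the series. The pools were chosen by their labels: the Young mice were 8 to 12 weeks old and the Old mice about 24 months old, and a group of about 12 months, called Mid, helped to set the spread in the model behind every error and p-value and is shown beside them where its level helps to place a gene. With Old and Young alone in the model, 293 genes were called in place of 849. All were female wild-type C57BL/6 mice with no added gene or treatment. SP-HSC were sorted from bone marrow as the lower side population, which keeps the least Hoechst dye, and each pool gave both the DNA and the poly(A) RNA of the study. Each pool joined the cells of several mice, more for Young than for Old by the study's methods, so the spread between pools is not the spread between mice. Libraries were made with a TruSeq kit.

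Haematopoietic stem cells are the rare marrow cells that renew themselves and supply all blood lineages. They pump Hoechst dye out through ABC transporters, and the side population is named for the dim tail that this makes on a sorter. With age these cells grow in number, repopulate less well per cell and give fewer lymphoid and more myeloid and platelet-lineage offspring. CD34 and the FLT3 receptor mark progenitors and shorter-lived stem cells of the mouse rather than its long-term stem cells.

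The deposited values are expected counts, the estimated number of reads that belong to each gene. They summed to between 74819481 and 195468525 per pool. Values are given as CPM, a gene's share of its pool's counts scaled to a common depth by TMM, which does not correct for length, so levels are compared between pools and not between genes. The files carry no gene names. Names were inferred by matching recovered transcript lengths to annotated ones, which named 3830 of the 16267 genes tested, or 23.5%. Lengths shifted on purpose, which can give no right name, still gave 3.49% as many names. The same shifts were used to drop uncertain names first, so this share is not an independent error rate. Before that step, shifted lengths named 187 clusters on average, against 4071 with true lengths. Young 1 and Old 1 were deposited as 1 file each and the other pools as a pair. Young 1 stood apart, with a mean correlation of 0.946 with the other pools against 0.970 to 0.980 for the others, and values without it are given where it changes a call or moves the called change of a gene named below by over 1.5 times. Of the 24 stem cell markers considered, 4 had names: Tek at 31.2 ± 1.5 CPM, Esam at 96.5 ± 3.7, Gfi1b at 6.09 ± 0.34 and Mecom at 1.79 ± 0.15 (mean ± SD, n = 3 Old pools). Most defining markers (Slamf1, Kit, Ly6a, Procr) had no name, so the identity of the cells was checked only in small part.

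Most genes changed little between Young and Old. The log2 fold change, Old minus Young, lay between -0.29 and 0.25 for the middle 50% of the 16267 genes and between -0.98 and 1.18 for the middle 90%, with a median of -0.04. By the estimate alone, 75.9% of genes differed by less than 1.5-fold. The 95% interval of the fold change lay wholly within 2-fold in either direction for 9322 genes (57.3%), and within 1.5-fold for 4103 genes (25.2%). For a further 6165 genes (37.9%) no change was called but the interval reached past 2-fold, so a change of that size could not be told from none at this depth and number of pools.

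At an adjusted p under 0.05, 849 genes were called, 5.22% of those tested. Of these, 517 rose with age (3.18%) and 332 fell (2.04%). The median called rise was 1.55 on the log2 scale and the median called fall -1.20. A rise of 0.49 and a fall of -0.47 were the smallest that passed. Among the 849, 22 had an estimated change under 1.5-fold (13 rises and 9 falls), 228 lay between 1.5-fold and 2-fold (117 and 111), 345 between 2-fold and 4-fold (217 and 128), and 254 above 4-fold (170 and 84). Rises and falls were thus near equal in number among changes of 1.5-fold to 2-fold, and rises outnumbered falls among larger ones. A test against a change of 1.5-fold, rather than against none, was passed by 245 genes (1.51%), of which 182 rose and 63 fell. In every called gene, the 3 Old pools lay wholly above or wholly below the 3 Young pools. Of all genes tested, 11.6% had all Old pools above all Young pools and 11.4% all below.

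The count of calls turned on single pools. Without Young 1, 1578 genes were called (878 up, 700 down), among them 839 of the 849, and none of the 849 changed sign. Leaving out any other pool gave between 291 calls, without Old 2, and 509, without Old 1, and likewise kept every sign. With only the samples deposited as a pair of files, which leaves out Young 1 and Old 1, 1857 genes were called. A core of 225 genes, 161 rising and 64 falling, was called in the reported comparison and in all 16 alternatives. Their median change was 1.86 for the rises and -1.48 for the falls, and the smallest was 0.75 in absolute size. In total expression the change was modest: genes that rose made up 0.791% to 1.33% of the counts of tested genes in the Young pools and 2.23% to 2.78% in the Old pools, and genes that fell made up 0.86% to 1.02% and 0.486% to 0.55%. These shares describe genes chosen for their change and test nothing.

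**Figure D1:**
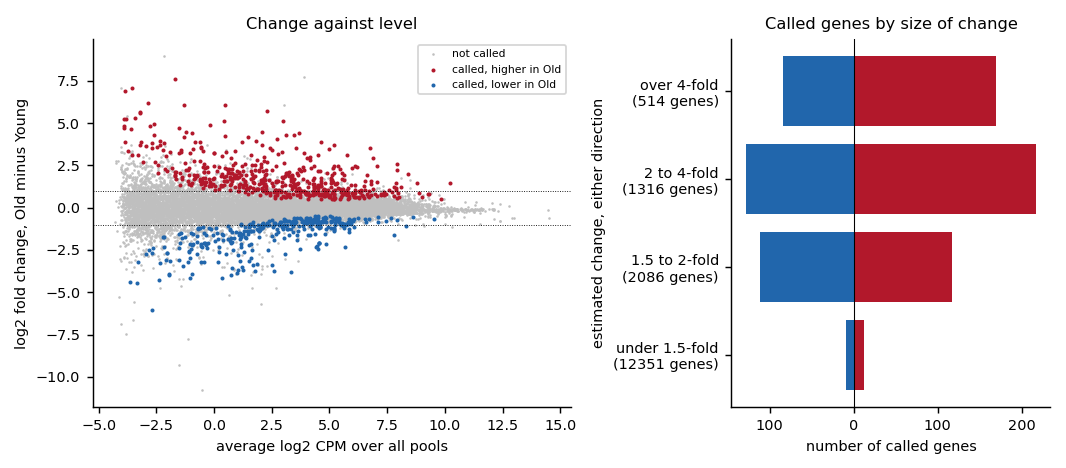
Left, the log2 fold change (Old minus Young) of each of the 16267 genes against its average log2 CPM, with called genes coloured by direction and dotted lines at 2-fold. Right, the number of called genes by estimated size of change; above 2-fold, 387 called genes rose and 212 fell.

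The size that could be called depended on the level of a gene. Among genes with an average log2 CPM of 0 or less, the median SE of the log2 fold change was 0.54 and the median called change was 2.40, with 4.60% of genes called. The share was largest, 8.84%, for an average log2 CPM of 0 to 2. It was 6.78% at 2 to 4, 4.93% at 4 to 6, 2.56% at 6 to 8 and 2.41% above 8. In the highest band the median called change was 0.81, and 83.5% of genes had an interval within 2-fold, against 7.65% in the lowest band. Over the lower bands the median called change fell together with the median SE. From 4 to 6, through 6 to 8, to above 8 it fell from 0.94 to 0.86 and 0.81. The median SE of those bands rose from 0.18 to 0.19 and 0.21. A call needs a change that is large against its SE, so these medians describe called genes only. Whether highly counted genes moved less was not tested. Among genes with an average log2 CPM above 6, 64 rose and 16 fell.

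**Figure D2:**
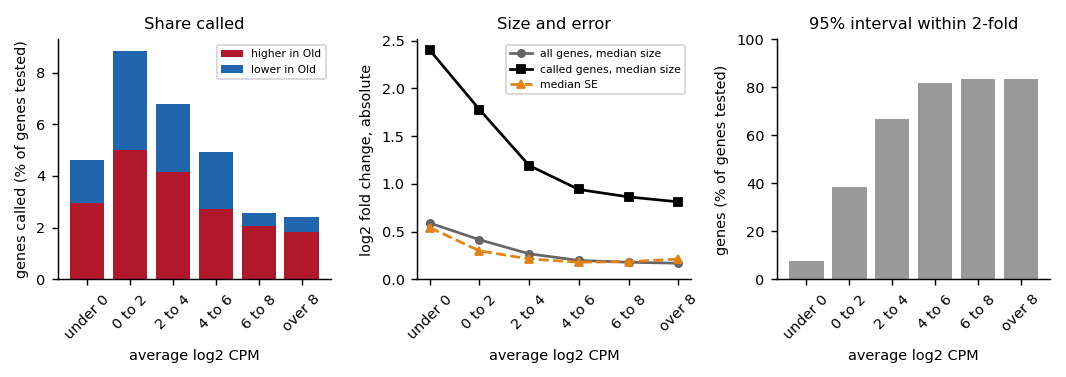
Genes grouped by average log2 CPM. The bars on the left give the percentage of genes called in each direction, the lines in the middle the median absolute log2 fold change of all and of called genes with the median SE, and the bars on the right the percentage of genes whose 95% interval stays within 2-fold, which climbs from 7.65% to over 80% above an average of 4.

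Among named genes with an average log2 CPM of at least 2, the largest rise was that of Mab21l2, a gene of the male-abnormal-21 family known from eye and body wall development. It measured 0.115, 0.201 and 0.228 CPM in the Young pools and 7.46, 10.6 and 12.2 CPM in the Old pools. The groups were far apart, and the log2 fold change was 5.73 (SE 0.32, adjusted p = 6.6e-05). Tdrd9, an RNA helicase that germ cells use to silence transposons, measured 0.196, 0.683 and 0.525 CPM in Young and 14.8, 21.2 and 15.4 CPM in Old (log2 fold change 5.12, SE 0.40, adjusted p = 0.00025). Both genes had under 1 CPM in every Young pool, and their Mid means of 4.2 and 6.13 CPM lay between those of Young and Old. Gm106, a predicted gene, went from 0.393, 1.06 and 1.04 CPM to 15, 15.3 and 19.3 CPM (log2 fold change 4.28, SE 0.36).

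The other 9 of the 12 largest rises include several genes of the cell surface. Osmr, the receptor subunit for oncostatin M, had 1.06, 1.20 and 0.670 CPM in Young and 11.7, 12.0 and 10.5 CPM in Old, an 11.7-fold rise (log2 3.54, SE 0.27, adjusted p = 0.00023). Clca2, of the calcium-activated chloride channel regulators, had 9.08, 13.7 and 13.7 CPM in Young and 99.7, 98.7 and 124 CPM in Old (log2 3.14, SE 0.20, adjusted p = 7.5e-05). Clec1a, a C-type lectin receptor, had nearly the same level in the Young pools, 12.7, 12.4 and 12.8 CPM, and 57.9, 80.4 and 71.8 CPM in the Old pools (log2 2.47, SE 0.15). For these 3 genes the lowest Old pool was at least 4 times as high as the highest Young pool. Gpr183, the oxysterol receptor EBI2 that guides B cells and dendritic cells, rose 5.40-fold, from 1.39, 1.66 and 1.46 CPM to 8.60, 8.48 and 7.32 CPM. Lrrn1, a leucine-rich repeat membrane protein of neurons, rose 6.74-fold, from 0.393, 1.27 and 1.25 CPM to 4.49, 7.70 and 7.87 CPM.

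The remaining 4 act inside the cell. Mt2, a metallothionein that binds zinc and copper, had 0.442, 2.44 and 2.09 CPM in Young and 20.3, 20.1 and 19.0 CPM in Old (log2 3.54, SE 0.48, adjusted p = 0.0041). Young 1 was the lowest pool, and without it the change was 3.14. Sult1a1, a sulfotransferase for phenols, had 12.6, 10.1 and 11.4 CPM in Young and 66.7, 55.0 and 66.6 CPM in Old (log2 2.46, SE 0.15, adjusted p = 7.5e-05). Ehd3, which helps to recycle endosomes, had 15, 25.6 and 27.8 CPM in Young and 95.9, 133 and 142 CPM in Old (log2 2.44, SE 0.25). Gas2l3, which links actin and microtubules, had 19.8, 23.8 and 23.8 CPM in Young and 95.4, 117 and 127 CPM in Old (log2 2.33, SE 0.15). Every Old pool was above every Young pool for each of the 12, and 29 genes without a name met the same conditions with a rise at least as large. The 2 largest of those, known only as uc009ldw.2 and uc008cdk.2, rose by 4.49 and 4.40 on the log2 scale.

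The largest fall among such genes was that of Spib, an Ets factor of B cells and plasmacytoid dendritic cells. It had 7.93, 28.8 and 28.2 CPM in Young and 1.83, 1.22 and 1.55 CPM in Old (log2 -3.83, SE 0.89, adjusted p = 0.040). Tnfrsf13c, the BAFF receptor that keeps B cells alive, had 31.6, 45.2 and 49.2 CPM in Young and 8.90, 6.25 and 7.82 CPM in Old (log2 -2.46, SE 0.20, adjusted p = 0.00032). Both were lowest among the Young pools in Young 1. Cd86, a co-stimulatory ligand for T cells, had the opposite order, with 66.4 CPM in Young 1, 33.7 and 37.0 CPM in the other Young pools and 18.2, 13.4 and 15.4 CPM in Old (log2 -1.54, SE 0.25).

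The progenitor markers Flt3 and Cd34 were both called lower in Old. Flt3 had 138, 83.5 and 65.2 CPM in Young and 21.8, 15.8 and 20.4 CPM in Old, a 4.95-fold fall (log2 -2.31, SE 0.28, adjusted p = 0.0024). Cd34 had 614, 243 and 229 CPM in Young and 135, 83.8 and 130 CPM in Old, a 3.11-fold fall (log2 -1.64, SE 0.38, adjusted p = 0.039). Both were highest in Young 1, and both were called without it as well (adjusted p = 0.00040 and 0.016), where the change of Cd34 shrank to -1.0. Cd34 lost its call when Old 1, Old 2 or Old 3 was left out (adjusted p = 0.086, 0.16 and 0.099), and Flt3 kept its call whichever pool was left out. In bulk RNA, fewer cells that carry a transcript and less of it per cell cannot be told apart. No other gene of the 7 on the progenitor list had a name.

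The remaining large falls were spread over several functions. Slc35d3, a nucleotide-sugar carrier family member linked to platelet dense granules, fell 5.41-fold, from 36.0, 17.6 and 15.4 CPM to 5.06, 3.71 and 4.01 CPM. Igf2bp2, an RNA-binding protein of fetal and proliferating cells, fell 3.40-fold, from 10.1, 16.5 and 18.9 CPM to 3.91, 5.17 and 4.29 CPM. Lgals1, galectin-1, fell from 42.3, 44.1 and 46.4 CPM to 20.3, 14.4 and 20.2 CPM (log2 -1.27, SE 0.20). Rassf4, Fam46a, Mamdc2 and Snx20 completed the 12, with log2 fold changes of -1.64, -1.58, -1.34 and -1.29. Fam46a had 60 CPM in Young 1 against 25.5 and 19.1 CPM in the other Young pools, and its change without Young 1 was -0.92. Spib lost its call when any pool but Young 1 was left out, with adjusted p from 0.082 to 0.17. Without Old 2, Fam46a, Mamdc2, Rassf4, Snx20 and Cd86 lost theirs (adjusted p = 0.18, 0.13, 0.066, 0.056 and 0.052), and Fam46a and Mamdc2 also without Old 1 (0.082 and 0.078) or Old 3 (0.13 and 0.081) and Fam46a without Young 2 (0.052). None of the 12 largest rises lost its call when 1 pool was left out. A further 25 genes without a name fell at least as far under the same conditions, the 2 largest being uc008opl.2 (-3.73) and uc007izh.2 (-3.38).

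**Figure D3:**
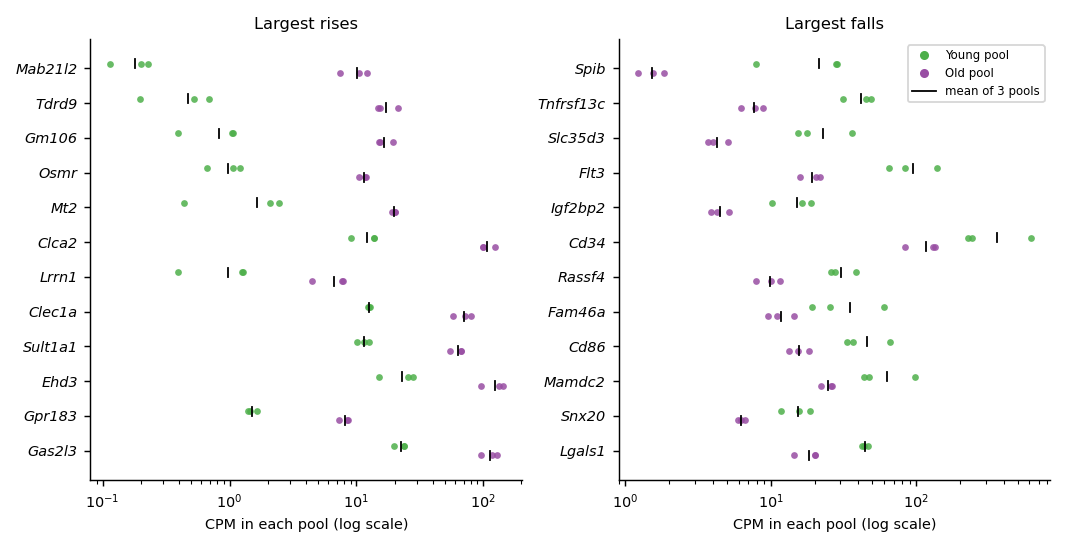
CPM (log scale) of the 12 largest named rises and the 12 largest named falls in each of the 3 Young and 3 Old pools, with the mean of each age as a black mark. The ages do not overlap for any of the 24, which was a condition of the choice; Young 1 is the lowest Young point for Mt2 and Spib and the highest for Cd34 and Flt3.

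The smallest called rises were close to 1.4-fold. Psen2, a presenilin of the gamma-secretase complex, was at 36.5, 34.6 and 36.1 CPM in Young and 49.5, 50.4 and 50.7 CPM in Old, a rise of 1.40-fold (log2 0.49, SE 0.11, adjusted p = 0.034). Skil, which restrains SMAD signalling from TGF-beta receptors and took the most counts of any named riser, was at 827, 787 and 764 CPM in Young and 1092, 1180 and 1132 CPM in Old (log2 0.52, SE 0.13). Abcb1b, a multidrug transporter able to export dyes, was at 34.4, 30.6 and 28.9 CPM in Young and 41.6, 44.9 and 49.9 CPM in Old (log2 0.54, SE 0.12, adjusted p = 0.038). Its neighbour Abcb1a rose too, by 0.74 (SE 0.17, adjusted p = 0.038); the pair are close copies, so reads may be split between them, and Abcb1a was looked up after its value was seen.

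The smallest called falls had the same size. Cmtm3 fell by 0.50, Cdc42ep3, an effector of the GTPase CDC42, by 0.53, and Rfc2, a subunit of the clamp loader of DNA replication, by 0.59 on the log2 scale. Each of these 6 small changes lost its call in 8 to 10 of the 16 alternatives, and none changed direction.

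Among the 5 most counted named genes called in each direction, Cd34 apart, no change exceeded that of Muc13, 2.26-fold. Some called genes without a name had a higher average log2 CPM than Muc13 (7.88) and changed more. Examples are uc008gym.1 (average 7.94, 4.72-fold rise) and uc008pgy.1 (average 7.92, 5.95-fold rise). Muc13, a membrane mucin, went from 160, 145 and 146 CPM to 360, 343 and 317 CPM (log2 1.17, SE 0.12). Gpd2, of the mitochondrial glycerol phosphate shuttle, and Osbpl8, a lipid transfer protein, rose by 0.55 and 0.63. On the falling side, Stmn1, stathmin, which destabilises microtubules and is abundant in dividing cells, went from 567, 337 and 366 CPM to 225, 156 and 227 CPM (log2 -1.06, SE 0.24, adjusted p = 0.037). Lsp1, an actin-binding protein of leukocytes, Antxr2, the anthrax toxin receptor, and Fam65b fell by 0.82, 0.82 and 0.64.

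Below an average log2 CPM of 2, 44 named genes rose and 27 fell, and the 8 largest in each direction were listed after the values were seen. Of all genes tested, named or not, 4.60% were called at 0 or less and 8.84% at 0 to 2, against 5.22% at any level. The counts of 44 and 27 were not read as a result about low-level genes. Over all called genes, named or not, 15 rises had 3 or fewer counts over the 3 Young pools and 3 falls 3 or fewer over the 3 Old pools, and no fold is given for those. Zg16, a secreted lectin of gut and pancreas, was at 0.0981, 0.0421 and 0.0346 CPM in Young and 1.02, 1.83 and 1.80 CPM in Old. Greb1, an oestrogen-responsive gene, went from 0.0818, 0.459 and 0.270 CPM to 2.07, 7.13 and 4.33 CPM, and its Mid mean of 5.68 CPM exceeded the Old mean. Rbpjl, a relative of the Notch effector RBPJ, was at 0.0491, 0.0842 and 0.124 CPM in Young and 0.837, 1.26 and 1.11 CPM in Old.

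The largest falls at low level include 2 genes known from the vessel wall. Cdh5, VE-cadherin, which holds endothelial cells together, had 5.66, 11.5 and 5.92 CPM in Young and 0.226, 0.364 and 1.55 CPM in Old (log2 -3.41, SE 0.69, adjusted p = 0.024). Sele, E-selectin, on which leukocytes roll, had 6.00, 8.52 and 3.16 CPM in Young and 0.279, 0.245 and 0.989 CPM in Old (log2 -3.52, SE 0.60). Rgs4, Abcc9 and Gpm6a fell by 3.67, 2.97 and 3.96 on the log2 scale, and Old 3 was the highest Old pool for all 5. Cxcl12, the other named member of the endothelial and stromal list of 16, did not move with them: it had 18.2, 7.03 and 4.55 CPM in Young and 3.84, 6.97 and 16.2 CPM in Old (adjusted p = 0.93). Pecam1, Plvap, Emcn and Kdr had no name here. The part that endothelial RNA in the pools plays in these falls was not tested. Ddx4, a germ cell helicase, rested in part on Young 1 (6.20 CPM, against 0.866 and 0.885 in the other Young pools and 0.239 to 0.313 in Old), yet was called without it as well (log2 -1.61 against -3.20, adjusted p = 0.0056).

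Gene lists were described by the count of named members that passed the test, beside 6.24% called and a median of -0.04 over all 3830 named genes. On the list of 40 genes reported to rise with age in stem cells, 8 had names, 7 of them rose and none fell, with a median log2 fold change of 2.44. Besides Osmr, Mt2, Sult1a1, Ehd3 and Gpr183, these were Ptprk, a receptor tyrosine phosphatase (3.40, 5.53 and 4.98 CPM in Young; 20.7, 22.9 and 22.7 CPM in Old), and Fhl1, a LIM-domain protein (34.8, 36.2 and 41.7 CPM; 70.3, 63.9 and 70.0 CPM). The eighth, Vwf, the von Willebrand factor of platelets and platelet-biased stem cells, had 83.6, 244 and 243 CPM in Young and 345, 644 and 748 CPM in Old. Its pools did not overlap, and its change of 1.61 (SE 0.41) missed the threshold at an adjusted p of 0.053, but passed it at 0.022 without Young 1. That list was written with earlier results of these libraries known, so its direction is not independent evidence.

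Of the 24 stem cell markers, 1 of the 4 with names was called. Gfi1b, a repressor needed in stem cells and in the erythroid and megakaryocyte lineages, fell from 13, 11.4 and 11.4 CPM to 6.49, 5.87 and 5.92 CPM (log2 -0.97, SE 0.18, adjusted p = 0.015). Tek, the angiopoietin receptor, had log2 -0.11 with an interval of -0.37 to 0.14, which leaves out a change of 1.5-fold. Of the megakaryocyte and platelet list, 6 of 24 had names, Vwf among them, and none was called, with a median of 0.02. Without Young 1, Vwf alone of the 6 was called, as higher in Old (adjusted p = 0.022). Itga2b, the platelet integrin CD41, had 53.8, 71.9 and 58.4 CPM in Young and 58.5, 68.1 and 110 CPM in Old.

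All 7 named members of the B lymphoid list of 18 were lower in Old by estimate, with a median of -3.65, but only Spib was called. Blk, a Src-family kinase of B cells, had 1.21, 9.24 and 8.65 CPM in Young and 0.518, 0.410 and 0.301 CPM in Old (adjusted p = 0.057). Pou2af1, a B cell co-activator, had 5.02, 21.1 and 28.0 CPM in Young and 2.62, 1.87 and 2.23 CPM in Old (adjusted p = 0.087). Young 2 and Young 3 were high for each of the 7, and Young 1 was the lowest Young pool, for Cd22 below every Old pool. Without Young 1 all 7 were called lower, and of all 3830 named genes 208 were called lower and 240 higher there. The summed level of the list was 22.5 to 104.6 CPM in Young and 6.34 to 8.97 CPM in Old, and among Mid pools Spib ranged from 0.994 to 14.9 CPM. Vpreb1, Igll1, Rag1, Ebf1 and Pax5 had no name, so early and mature B cell genes could not be set apart. The part that B cells in the pools play in the falls of Spib and Tnfrsf13c was not tested.

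Of 5 named members of the T and NK cell list, 4 were higher in Old by estimate and 1 was called. Ncr1, the NK cell receptor NKp46, rose from 0, 0.0561 and 0.0760 CPM to 2.25, 0.757 and 0.443 CPM (adjusted p = 0.021), and was the call among them, from a list of 15. Gzma, a granzyme, was lower by estimate, at -0.38 on the log2 scale (adjusted p = 0.77). Cd3g, of the T cell receptor complex, had 8.88, 1.5 and 1.38 CPM in Young and 28.2, 8.88 and 3.47 CPM in Old (adjusted p = 0.29). Old 1 held the most of both, and Young 1 the most Cd3g of the Young pools. Without Young 1, 3 of the 5 were called higher. The summed level of the 5 was 4.34 to 16.8 CPM in Young and 8.14 to 57.2 CPM in Old. Itgax, the CD11c integrin of myeloid and NK cells, which was chosen after its values were seen, was highest in Old 1 as well, with 1.98, 2.17 and 1.63 CPM in Young and 11.0, 4.37 and 4.35 CPM in Old (adjusted p = 0.031). No member of the myeloid (6 named of 21) or erythroid (5 of 15) lists was called, with medians of -0.14 and -0.53. The summed erythroid level was low in both ages, at 11.8 to 16.9 CPM in Young and 7.91 to 14.1 CPM in Old, whereas the myeloid sum was 476 to 941 CPM and 563 to 775 CPM, most of it Ltf.

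The cell cycle list leaned down without reaching the threshold. Of 33 members 9 had names, 7 were below 0 by estimate, the median was -0.38, and none fell at the threshold. Mcm5, of the replicative helicase, had 73.0, 82.1 and 82.9 CPM in Young and 36.8, 37.1 and 62.0 CPM in Old (log2 -0.81, SE 0.21, adjusted p = 0.062). Mki67, the Ki-67 proliferation antigen, varied widely, with 11.6, 104 and 39.5 CPM in Young and 16.5, 40.3 and 45.6 CPM in Old (adjusted p = 0.68). The only call was a rise, of Cdkn2c, the inhibitor p18INK4C of CDK4 and CDK6, from 8.39, 6.70 and 6.75 CPM to 12.7, 10.6 and 14.1 CPM (log2 0.78, SE 0.18, adjusted p = 0.043). Cdkn2b, the related inhibitor p15INK4B, which was not on the list and was chosen after its values were seen, rose by 2.14 (SE 0.27, adjusted p = 0.0029). Without Young 1, Mcm5 and Mcm6 were called lower.

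Outside the list, 3 called falls are given that were chosen after their values were seen, so they stand for no group. Nusap1, a spindle protein, fell from 14.2, 13.4 and 14.6 CPM to 7.38, 5.38 and 8.77 CPM. Ncapg, a condensin subunit, fell from 9.88, 10.1 and 8.74 CPM to 5.24, 4.48 and 6.29 CPM. Neil3, a DNA glycosylase, fell from 7.20, 6.95 and 6.54 CPM to 2.38, 3.44 and 4.33 CPM. Their log2 fold changes were -0.97, -0.84 and -1.02. Of 8 kinesin genes, motors of the spindle and of transport, 6 were above 0 with a median of 0.18 and none was called. Without Young 1, 1 kinesin gene was called higher and 1 lower. Of 4 centromere protein genes 2 were above and 2 below 0, with 1 called lower.

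**Figure D4:**
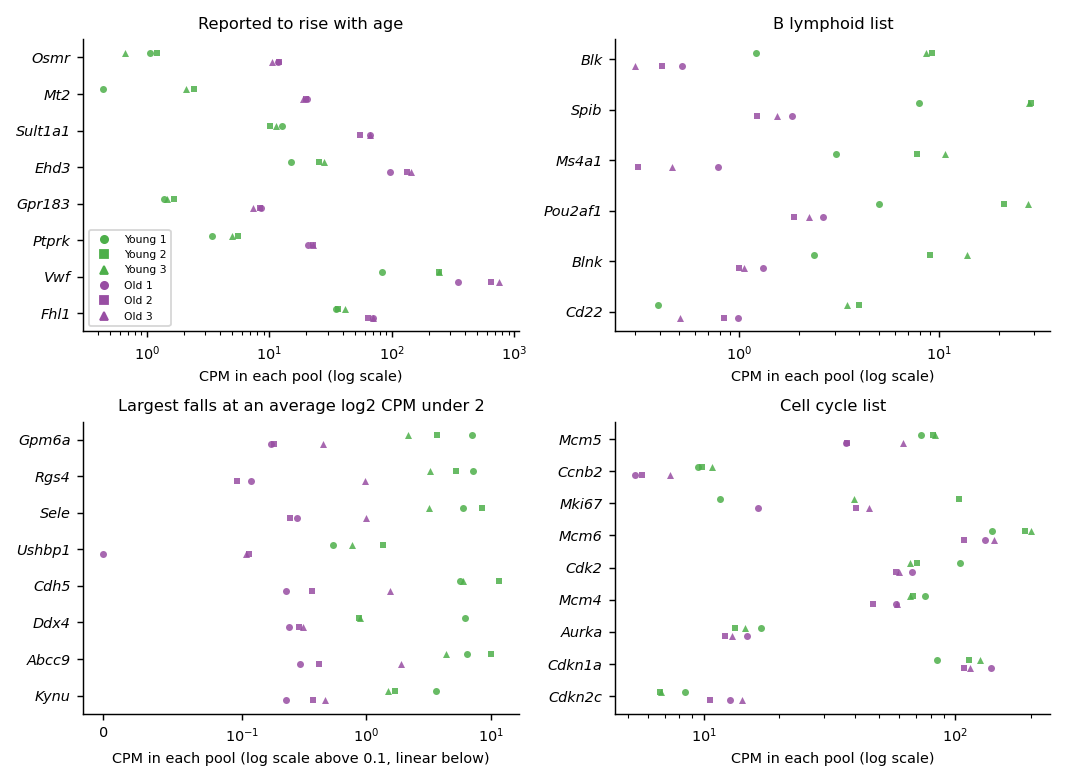
CPM (log scale, linear under 0.1 in the panel of falls) in each Young (green) and Old (purple) pool, with the pool number as the marker shape, for named members of 3 gene lists and for the 8 largest named falls at an average log2 CPM under 2. Green and purple are apart for all 8 genes reported to rise with age, a list written with earlier results of these libraries known. Young 1 is the lowest Young point for each B lymphoid gene shown and for Cd22 lies below all 3 Old points. The ages overlap for 5 of the 9 cell cycle genes. Of all genes tested, 11.6% had all Old pools above all Young pools and 11.4% all below.

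Among genes of chromatin and DNA methylation, the catalytic PRC2 subunit was called and its partners were not. Ezh2, which methylates lysine 27 of histone H3, fell from 39.1, 35.5 and 36.7 CPM to 22.2, 18.3 and 22.4 CPM (log2 -0.82, SE 0.14, adjusted p = 0.011). Suz12, Rbbp4 and Phf1, the other named members of the PRC2 list of 11, had changes of -0.09, -0.20 and 0.22, with adjusted p of 0.84, 0.73 and 0.65. Whether Ezh2 differed from them was not tested. None of 6 named PRC1 genes (of 17) was called, and their changes ran from -0.26 to 0.41. None of 5 named DNA methylation genes (of 18) was called: Dnmt3b, a de novo methyltransferase, had 37.6, 44.7 and 37.9 CPM in Young and 27.6, 31.4 and 31.1 CPM in Old (adjusted p = 0.13), and Tet1, which oxidises methylcytosine, had 8.24, 3.59 and 4.31 CPM and 2.83, 2.87 and 2.71 CPM (adjusted p = 0.10). Uhrf1, which recruits DNMT1, was called lower without Young 1 (adjusted p = 0.019, against 0.30 with it).

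A few regulators with smaller falls are given too, chosen after their values were seen. Myb, a transcription factor of blood progenitors, fell from 74.6, 70.4 and 63.6 CPM to 44.1, 33.2 and 31.3 CPM (log2 -0.94, SE 0.17). Gfi1, the partner of Gfi1b that restrains stem cell division, fell from 19.4, 11.5 and 12.3 CPM to 6.67, 5.20 and 6.17 CPM (log2 -1.26, SE 0.22). Socs2, a feedback inhibitor of cytokine signalling, fell by 1.03, and was highest in Young 1.

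No call was made on the interferon list (4 of 23 named, median 0.12), the DNA damage and p53 list (5 of 22, 0.07), the immediate early list (6 of 23, 0.20) or the mitochondrial respiratory chain list (6 of 25, -0.21). Without Young 1, Egr3 of the immediate early list was called higher (log2 1.22, adjusted p = 0.038, against 0.95 and 0.12 with it). Pacsin2, the only named caveolar gene of 9, had -0.08. Of the 8 named adhesion and migration genes (of 37), Cdh5 alone was called. None of the 8 genes on a list near age-related methylation changes had a name here. Fewer than 80% of the members had names in every list, so a list without a call was not tested as a whole.

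Families were taken by their gene symbols after the values were seen. They are given beside all named genes, of which 6.24% were called and 66.5% had an interval within 2-fold. Both shares change with level, so a small family without a call was not read as unusual. Of 18 ribosomal protein genes, 17 were below 0 with a median of -0.13, none was called, and 88.9% had an interval within 2-fold. All 22 respiratory chain genes were below 0, with a range of -0.47 to -0.03 and no call. All 9 proteasome subunits stayed within 2-fold, with changes of -0.28 to 0.38. None was called, though 1 was called higher without Young 1. The medians of these families, in that order, were -0.13, -0.18 and -0.08, below the median of all genes, -0.04. That median itself moved between -0.05 and 0.03 with the choice of scaling and samples. The 6 named genes of the respiratory chain list were also fitted without Young 1. Their log2 changes there were 0.21 (Ndufa4), 0.19 (Ndufb9), 0.15 (Cox6c), 0.09 (Cox4i1), 0.07 (Cox7a2) and -0.08 (Ndufa2). The mostly negative signs in these families were not read as a change. Receptors named Gpr spread more by estimate, from -1.70 to 2.86 over 18 genes, of which 3 rose, or 4 without Young 1. Only 27.8% of them had an interval within 2-fold, so part of that spread may be imprecision. Among 62 solute carriers, 2 rose and 3 fell, and among 77 Zfp zinc finger genes 1 rose and 1 fell. Without Young 1 the counts were 8 and 6 for the solute carriers and 2 and 4 for the Zfp genes.

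At the transcript level 33206 transcripts were tested and 182 were called, 0.548% of them, with 146 rising (0.44%) and 36 falling (0.108%). Without Young 1, 358 were called, and without Old 2, 36. The median SE of a transcript was 0.33 where it was the only one of its gene and 0.53 where reads were shared between several, and 0.966% and 0.452% of such transcripts were called. Of the 182, 163 belonged to genes that were themselves called, and 19 to genes that were tested but not called. For 60 of the 182 the transcript was the only one of its gene. Gene and transcript then rest on the same counts, so the overlap is not independent support. Among 8 genes with at least 2 called transcripts, all moved in 1 direction, and no gene had called transcripts in opposite directions. With 0.44% of transcripts called up and 0.108% down, few genes could hold calls in both directions. A switch between the transcripts of a gene was therefore not tested. In Muc13, uc007zam.1 went from 153, 134 and 131 CPM to 317, 294 and 284 CPM and the lesser uc007zal.1 from 9.02, 10.6 and 17.5 CPM to 45.8, 40.1 and 40.8 CPM. Both transcripts of Tnfrsf13c that were called fell, by 2.58 (uc007wyj.1) and 2.27 (uc007wyk.1) on the log2 scale. Of 447 called genes with several tested transcripts, 322 had all of them on the side of the gene, and 7 had a transcript of opposite sign at an unadjusted p under 0.05. A gene's count is made up of its transcripts' counts, and these genes were chosen for their change. A shared sign is therefore in part built in and is a description only.

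A transcript could also change where its gene was not called. The transcript uc008uip.1 fell from 26.1, 23.8 and 23.2 CPM to 7.02, 6.48 and 7.53 CPM (log2 -1.80), and uc008uir.1 of the same unnamed gene fell by 2.60. The transcript uc009nhx.1 rose from 1.74, 0.958 and 1.74 CPM to 18.0, 13.5 and 12.8 CPM. Expected counts divide shared reads by a model, and the error of that division is not in the counts, so the p-values of transcripts that share reads may be too small.

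For most called genes the Mid pools lay in between. The mean of the 3 Mid pools fell between those of Young and Old for 486 of the 517 rises and 300 of the 332 falls. It was above the Old mean for 17 rises, Greb1 among them, and below it for 28 falls. Since the calls were chosen by the Young and Old pools, an intermediate Mid level is a description and was not tested. Gfi1b was an exception among the listed genes, with 11.6, 17.2 and 12.2 CPM in Mid against 13, 11.4 and 11.4 CPM in Young, and Thbd, thrombomodulin, was another on the rising side, with a Mid mean of 13.2 CPM against 15.3, 18.4 and 12.5 CPM in Young and 39.0, 36.2 and 41.5 CPM in Old.

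The named genes have these places on NCBIM37 in the GENCODE annotation used for the names. Mab21l2 lies on chromosome 3 from 86349503 to 86352205, Osmr on chromosome 15 from 6763577 to 6824313, Sult1a1 on chromosome 7 from 133816379 to 133819946 and Clca2 on chromosome 3 from 144459523 to 144482458. Flt3 lies on chromosome 5 from 148142317 to 148212065, Cd34 on chromosome 1 from 196765015 to 196787486, and Tnfrsf13c on chromosome 15 from 82052174 to 82054790. The counts cover whole genes, with no values by exon. Of the 239 called genes with names, 28 were named by length alone, among them Cd34, Tnfrsf13c, Gas2l3, Ezh2, Myb, Socs2, Ddx4, Osbpl8, Gpd2 and Skil. The others needed the position of the gene cluster between neighbours as well. Names by length alone also had to lie in genome order. Either kind of name may be wrong, and which is more certain was not tested.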

How the data were processed

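The authors aligned reads and deposited, per gene cluster and transcript, expected counts (not normalized) and the estimated fraction of transcripts; the submitters' processing notes name RSEM 1.1.21, Bowtie 0.12.7, BWA 0.5.8 and mm9. Here the files of a sample were summed, counts were rounded, and all 9 RNA-seq pools were fitted by edgeR 4.0.16 (R 4.3.3): filterByExpr, TMM, quasi-likelihood test of Old minus Young, Benjamini-Hochberg adjustment over all features at 0.05, glmTreat at 1.5-fold, and 95% intervals from the same fit. Nothing in the sources says that pools of an age came from separate cohorts, so p-values measure the spread between pools. Replicates of an age differed by more than counting noise.

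Names came from transcript lengths, recovered as count over fraction for 26494 transcripts (99.49% within 0.1 bp of a whole number) and matched exactly to GENCODE vM1 on NCBIM37. By length alone, 937 clusters had a single best gene and 444 of these were in genome order, against 42 to 48 with shifted lengths. The plan was to use length alone, with position as a check. Because this named few genes, names by exact length between such neighbours were added after the files were seen, with a limit of 5% of 242 shifts also giving a name; 3832 clusters were named, 417 by length alone.

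Members and lists were chosen with earlier results of these data known. Named genes are list members, the 12 largest rises and falls (average log2 CPM of at least 2, ages not overlapping), the 5 most counted and 3 smallest called changes per direction, all among genes with names, and others stated as chosen after their values were seen. Some genes that meet these rules are not reported here. The MeDIP-seq samples were not used here.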

Additional observations from a re-analysis of the deposited data

How the results depend on the processing

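No called gene of the reported comparison changed sign under any of the 16 alternatives, and all 38 genes checked one by one kept their direction; of 607 values, 482 stayed called and 125 did not. DESeq2 size factors (855 genes called), filters on counts (765 and 770) and single runs (769 without and 838 with the date tag) left the count of genes within 1.5 times of 849. It moved to 1991 with the DESeq2 1.42.0 test (1108 up, 883 down), to 2363 with a covariate for the number of files (1328 up, 1035 down), to 293 with Old and Young only (197 up, 96 down), and to 1857 with only samples deposited as a pair of files, an alternative added after the data were seen (1079 up, 778 down). Changes past 1.5-fold moved from 245 to 597, 104 and 493 under the last 3. Transcript calls moved from 182 to 1779, 622, 2 and 468 in that order, and to 276 with at least 10 counts in each sample. Leaving out 1 pool gave 291 to 1578 genes (216 to 878 up, 75 to 700 down), 118 to 407 past 1.5-fold, 36 to 358 transcripts and 7951 to 10600 genes with an interval within 2-fold, the lowest without Old 2 (for intervals, Young 3) and the highest without Young 1; the cause of these moves was not tested.

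With the replicate number as a block, 622 genes were called, 582 of them among the 849, with 218 falls, 180 changes past 1.5-fold and 33 transcripts. Deviations of same-numbered Young and Old pools correlated at 0.375, 0.420 and 0.061, so not every pair exceeded 0.1, and the numbers were not taken to pair the pools; Young 2 and Young 3 both correlated best with Old 2. The block is given here only. Those of the 38 genes that lost their call under it include Cd34, Spib, Stmn1, Lsp1, Gpd2, Skil, Psen2, Abcb1b, Cmtm3, Cdc42ep3, Rfc2 and Fam46a.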
